A study of Mus musculus with 6 samples.

Results

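Y-box proteins and the other germline RNA-storage proteins keep messenger RNA in testis until it is needed, and here the RNA that encodes them was followed in immunoprecipitates of PNMA4. The set was defined by gene symbol, with earlier results of these data known. It holds 10 genes of the 57010 gene IDs in the count table, namely Ybx1, Ybx2, Ybx3, Pabpc1, Cpeb1, Cpeb2, Dazl, Larp1, Msi2 and Celf1. Each symbol matched 1 row of the table. PNMA4, listed as Moap1 in mouse gene tables, is encoded by a gene derived from the capsid gene of a retrotransposon. The study asks which RNA is recovered with PNMA4 particles beyond what the same antibody recovers from testes that lack the protein. The values are therefore levels of messages that code for storage proteins, and they say nothing of the proteins themselves or of the messages these proteins bind.

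The data are 6 RNA libraries, each from a lysate of 8 pooled testes taken at 3 months of age. Lysate was spun onto layers of 25% and 70% sucrose, the material above the denser layer was separated on an iodixanol gradient, and PNMA4 was immunoprecipitated from fractions 8 and 9. The 3 wild-type libraries are of C57BL/6J mice per the labels' protocol. The 3 libraries lacking PNMA4 are replicates 1 and 2 from Pnma4 KO mice and replicate 3 from mice that lack both Pnma1 and Pnma4, written below as the double knockout, which the labels pool with the others. These 3 libraries are called the controls below. The strain background of the knockouts and the nature of the deleted alleles are not stated in the labels. The values are relative levels among the RNA counted in each precipitate, not amounts of RNA recovered. Input RNA was not analysed here, so they cannot be set against levels in whole testis.

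As background, germ cells of the testis make many messages days before the protein is needed, because transcription stops as the spermatid nucleus condenses. Such messages are held as particles coated by Y-box proteins, and their poly(A) tails, with the proteins that bind the tails and the 3' untranslated regions, set when they are translated. Ybx2 and Dazl are known as germ cell genes, whereas Ybx1, Pabpc1, Larp1 and Celf1 are expressed in many tissues.

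Library totals ran from 3138657 to 6367930 counts. Moap1 had 7, 26 and 27 counts in wild type and 0 in each library lacking PNMA4, and Pnma1 had 0 in the double knockout and 76 to 152 elsewhere, as the labels say. All 10 germ cell markers, among them Ddx4, Stag3, Sycp1 and Prm2, were detected in every library, and their summed level was 1488 to 1551 CPM in wild type against 1360 to 1668 CPM in the controls. CPM are library-scaled counts (per 1e6 counts) after TMM scaling, which aligns the bulk of genes between libraries. The double knockout library stood apart in several ways. The 18S rRNA-related gene Rn18s-rs5 took 57.5% of its counts, against 27.3% to 36.1% in the other 5 libraries, and its 8 Leydig cell markers summed to 422 CPM, against 163 to 212 CPM. The 10 Sertoli cell markers summed to 376 CPM there, against 177 to 249 CPM elsewhere. The markers of a cell type did not rise alike. Unscaled counts in the double knockout and in replicate 1 of the controls were 139 and 138 for Star, but 383 and 174 for Cyp17a1. Among Sertoli cell markers they were 71 and 67 for Sox9, but 567 and 415 for Clu. The 6 epididymis markers summed to 7.62 to 11.5 CPM in wild type against 14.9 to 28.9 CPM in the controls, with Lcn5 and Defb20 at 0 counts in all libraries. These sums are of precipitates from gradient fractions of pooled tissue and do not measure cell numbers. Fewer cells of a type and less RNA per cell cannot be told apart in them.

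RNA of all 10 storage protein genes was recovered in every library, with and without PNMA4. None of the 10 was higher or lower in wild type by the quasi-likelihood test of edgeR (adjusted p = 1.00 for each), where 0.0596% of the 13413 genes tested were called, 0.0224% as higher and 0.0373% as lower. None had an unadjusted p under 0.05 either, which 2.92% of all genes had, and DESeq2 and limma-voom called 0 of the 10 as well. The estimated difference was at most 1.22-fold, with 5 genes on the higher and 5 on the lower side of equal. The median log2 fold change, wild type over lacking PNMA4, was 0.07, beside 0.01 over all genes tested. In CPM, none of the 10 had groups that do not overlap, which 6.68% of genes tested had. All 10 had 95% intervals that stayed within 1 of 0 on the log2 scale, so that a 2-fold difference in either direction was outside it. This held for 71.1% of all genes tested. The outermost bounds over the 10 genes were −0.63 and 0.83, and smaller differences are not excluded by these data. The intervals were also within 1 of 0 for all 10 with each library left out in turn. Without scaling factors, only 2 of the 10 intervals lay within 1 of 0. After TMM scaling the differences are relative to the bulk of genes, so a difference shared by most messages would not show.

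**Figure D1:**
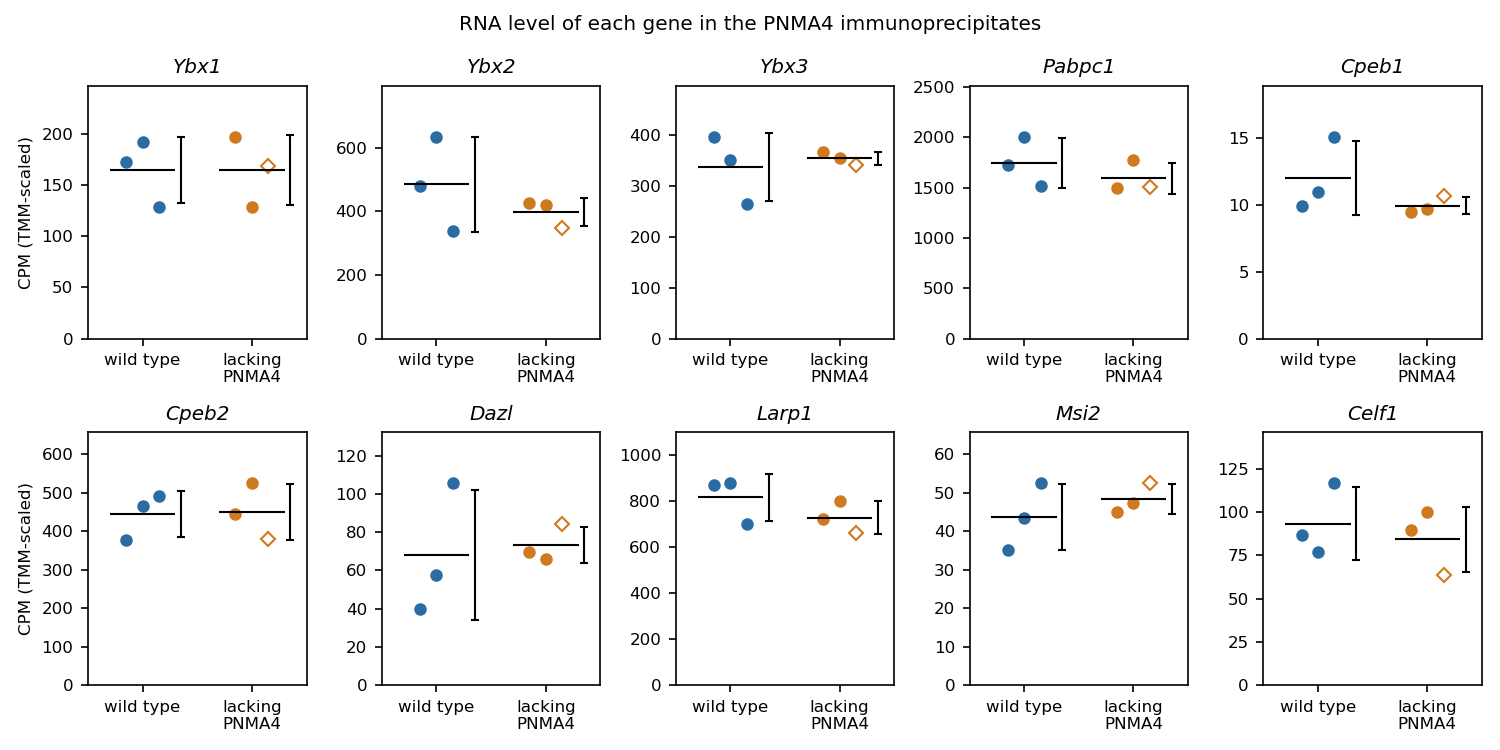
Level of each gene in CPM after TMM scaling (vertical axis, linear from 0) in wild-type libraries (blue, replicates 1 to 3 from left) and libraries lacking PNMA4 (orange, with the double knockout as an open diamond). Horizontal lines are means and bars are 1 SD (n = 3 each), and the groups overlap for every gene, with the widest wild-type spread for Dazl (39.9 to 106 CPM).

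**Figure D2:**
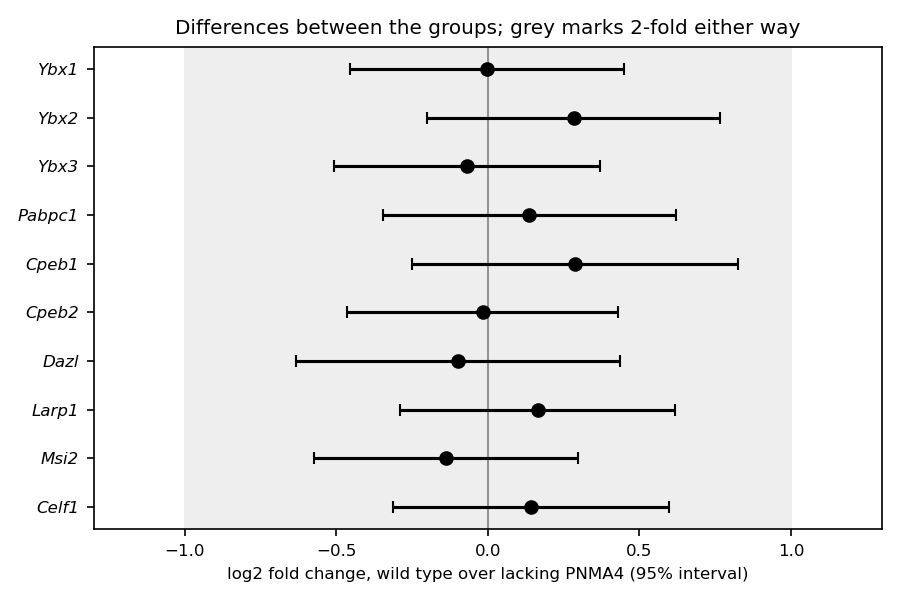
Log2 fold change of each gene after TMM scaling, wild type over lacking PNMA4, with the 95% interval of the edgeR fit (horizontal axis). The grey band marks 2-fold in either direction, and all 10 intervals, from −0.63 at the lowest bound to 0.83 at the highest, lie inside it and include 0.

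The Y-box genes encode proteins with a cold shock domain that coat messages and hold them from translation. Ybx2, also named MSY2, encodes the germ cell member of the family and lies on chromosome 11 (69935805 to 69941604 in GRCm38.p6, as are all positions here). Its level was 481, 636 and 338 CPM in wild-type replicates 1 to 3. Without PNMA4 it was 427 and 422 CPM in the Pnma4 KO libraries and 347 CPM in the double knockout. The wild-type values lay on both sides of all 3 control values, with replicate 2 the highest and replicate 3 the lowest of all 6 libraries. The means were 485 ± 149 and 399 ± 44.6 CPM (SD, n = 3 each), and the log2 fold change was 0.28 (standard error 0.23, interval −0.20 to 0.76, edgeR adjusted p = 1.00). With wild-type replicate 2 left out it was 0.05, and with wild-type replicate 3 left out it was 0.49 (interval 0.05 to 0.93, unadjusted p = 0.0307, edgeR adjusted p = 0.467). In neither case did the gene pass the test.

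Ybx1 (chromosome 4, 119277327 to 119296265), the family member known from most tissues, stood at 173, 192 and 129 CPM in wild-type replicates 1 to 3. In the libraries lacking PNMA4 it stood at 198, 129 and 169 CPM in replicates 1 to 3. Both groups covered nearly the same range, and their means of 165 ± 32.3 and 165 ± 34.5 CPM (SD, n = 3 each) differed by a log2 fold change of −0.003 (standard error 0.22, interval −0.45 to 0.45, edgeR adjusted p = 1.00). A value so near 0 changed sign with the library left out, at 0.15 without wild-type replicate 3, 0.15 without replicate 1 of the controls and 0.01 without the double knockout.

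Ybx3 (chromosome 6, 131364858 to 131388450), whose protein is also named MSY4 and binds the protamine 1 message, was measured at 397, 351 and 265 CPM in wild type. The controls were much closer together, at 366, 355 and 341 CPM, and all 3 lay inside the wild-type range. Means were 338 ± 67.1 and 354 ± 12.5 CPM (SD, n = 3 each), with a log2 fold change of −0.07 (standard error 0.21, interval −0.51 to 0.37, edgeR adjusted p = 1.00). Without wild-type replicate 3 it was 0.09. The symbol of 1 further row, the pseudogene Ybx1-ps2, marks a copy of Ybx1, and it held 0 to 5 counts in the 6 libraries. Reads of processed copies with other names could still be shared with Ybx1, so its level is less certain than that of Ybx2.

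Pabpc1, Cpeb1 and Cpeb2 act on the poly(A) tail. Pabpc1 (chromosome 15, 36595658 to 36609581) encodes the main cytoplasmic poly(A)-binding protein, and with 4522 to 15827 counts per library it was the most deeply counted of the 10 genes. It was at 1724, 2010 and 1515 CPM in wild type and at 1500, 1773 and 1503 CPM in replicates 1 to 3 lacking PNMA4. Wild-type replicate 2 was the highest library, and the other wild-type values fell among the controls. The means were 1750 ± 249 and 1592 ± 157 CPM (SD, n = 3 each), and the log2 fold change was 0.14 (standard error 0.23, interval −0.35 to 0.62, edgeR adjusted p = 1.00). It was 0.03 without wild-type replicate 2 and 0.24 without wild-type replicate 3. Mouse testis also expresses Pabpc2 and Pabpc6, intronless relatives of Pabpc1, and reads of the shared coding sequence may have been split between these genes. Pabpc2 stood at 230 ± 45.4 CPM in wild type against 240 ± 30.0 CPM in the controls, and Pabpc6 at 256 ± 8.62 and 271 ± 38.7 CPM (SD, n = 3 each).

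Cpeb1 (chromosome 7, 81347026 to 81458001) encodes the protein that binds the cytoplasmic polyadenylation element and lets a stored message lengthen its tail. It had the fewest counts of the 10 genes, 30 to 99 per library. Wild-type libraries were at 9.92, 10.9 and 15.1 CPM, and libraries lacking PNMA4 at 9.45, 9.64 and 10.6 CPM. Replicate 3 of wild type alone lay well above the rest, while the lowest wild-type value was inside the range of the controls. The means of 12.0 ± 2.75 and 9.91 ± 0.636 CPM (SD, n = 3 each) gave a log2 fold change of 0.29 (standard error 0.26, interval −0.25 to 0.83, edgeR adjusted p = 1.00), and without wild-type replicate 3 it was 0.09. The antisense gene Cpeb1os1 had 2 to 5 counts in each library. Whether reads were assigned by strand is not stated in the labels.

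Cpeb2 (chromosome 5, 43225349 to 43289724), a paralogue of Cpeb1 with known expression in testis, was at 378, 466 and 490 CPM in wild type. In replicates 1 to 3 lacking PNMA4 it was at 444, 525 and 381 CPM. The lowest wild-type library and the double knockout were nearly level, and neither group lay above the other. Means were 445 ± 59.0 and 450 ± 72.3 CPM (SD, n = 3 each), and the log2 fold change was −0.02 (standard error 0.22, interval −0.46 to 0.43, edgeR adjusted p = 1.00). Its sign turned without wild-type replicate 1 (0.08) and without replicate 2 lacking PNMA4 (0.11).

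Dazl, Larp1, Msi2 and Celf1 encode proteins that bind particular messages, mostly in untranslated regions. Dazl (chromosome 17, 50279393 to 50293620) encodes an RNA-binding protein that germ cells need for their development, and its level varied more than that of any other of the 10 genes. In wild type it was 39.9, 57.8 and 106 CPM, a 2.65-fold range. Without PNMA4 it was 69.3, 66.1 and 84.1 CPM, all inside the wild-type range. The means were 67.8 ± 34.0 and 73.2 ± 9.60 CPM (SD, n = 3 each), with a log2 fold change of −0.10 (standard error 0.26, interval −0.63 to 0.43, edgeR adjusted p = 1.00). The value depended on single wild-type libraries. It was −0.56 without wild-type replicate 3 (unadjusted p = 0.0121, edgeR adjusted p = 0.402) and 0.15 without wild-type replicate 1. Without wild-type replicate 2 it was 0.01, and without the double knockout 0.006.

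Larp1 (chromosome 11, 57973418 to 58062034) encodes the La-related protein that controls messages of the translation machinery with a terminal oligopyrimidine start. It was at 869, 878 and 700 CPM in wild type and at 720, 802 and 660 CPM in replicates 1 to 3 lacking PNMA4. Wild-type replicates 1 and 2 were the highest of the 6 libraries, but wild-type replicate 3 was lower than both Pnma4 KO libraries. Means of 816 ± 101 and 727 ± 71.3 CPM (SD, n = 3 each) differed by a log2 fold change of 0.17 (standard error 0.22, interval −0.29 to 0.62, edgeR adjusted p = 1.00). The estimate stayed positive with each library left out, from 0.10 to 0.27.

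Msi2 (chromosome 11, 88339382 to 88718306), a Musashi gene whose protein represses translation of its target messages, stood at 35.2, 43.4 and 52.4 CPM in wild type. The libraries lacking PNMA4 stood at 45.1, 47.4 and 52.5 CPM. The highest values of both groups were nearly equal, and wild-type replicates 1 and 2 were the lowest of the 6. Means were 43.7 ± 8.61 and 48.3 ± 3.82 CPM (SD, n = 3 each), with a log2 fold change of −0.14 (standard error 0.21, interval −0.57 to 0.30, edgeR adjusted p = 1.00). It was −0.02 without wild-type replicate 1 and −0.28 without wild-type replicate 3. Celf1 (chromosome 2, 90940259 to 91019497) encodes a protein that binds GU-rich elements and promotes deadenylation. Wild type had 86.6, 76.8 and 117 CPM of it, and the controls had 89.8, 99.995 and 63.5 CPM, with the double knockout the lowest library. Its means of 93.5 ± 20.9 and 84.4 ± 18.8 CPM (SD, n = 3 each) gave a log2 fold change of 0.14 (standard error 0.22, interval −0.31 to 0.60, edgeR adjusted p = 1.00). Without the double knockout this was −0.03, and without wild-type replicate 3 it was −0.05.

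**Figure D3:**
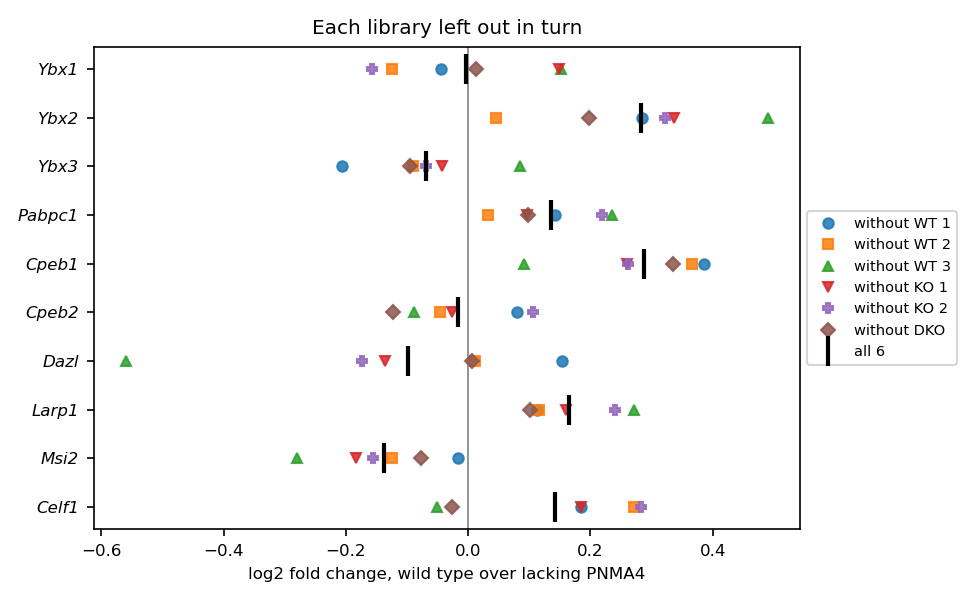
Log2 fold change of each gene, wild type over lacking PNMA4 (horizontal axis), with all 6 libraries (black bars) and with each library left out in turn (coloured symbols, where WT 1 to 3 are wild type, KO 1 and 2 are Pnma4 KO and DKO is the double knockout). Dazl moved the most, from −0.56 without wild-type replicate 3 to 0.15 without wild-type replicate 1, while Ybx2, Pabpc1, Cpeb1 and Larp1 stayed above 0.

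The libraries varied among themselves by more than counting error for most of the genes. The coefficient of variation over all 6 libraries was 11.9% for Larp1, 12.3% for Pabpc1 and 12.7% for Ybx3, the smallest of the set. It was 24.7% for Ybx2 and 31.97% for Dazl, the largest. Counting error alone would give 1.72% for Larp1, 2.32% for Ybx2 and 5.89% for Dazl. Cpeb1 was nearest to the counting limit, with 19.3% observed and 14.6% from counting. The reads carry no stated molecular identifiers and may include PCR copies, so these limits cover counting error only. The SD of log2 CPM was larger in wild type than in the controls for 7 of the 10 genes, as for 53.8% of all genes tested. For Ybx2, Ybx3 and Dazl the wild-type range enclosed all controls, as it did for 24.6% of all genes.

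Wild-type replicate 3 split the genes into opposite sets. Ybx1, Ybx2, Ybx3, Pabpc1 and Larp1 were lower in it than in both other wild-type libraries, at −0.50, −0.71, −0.50, −0.30 and −0.32 log2 CPM relative to the mean of those libraries. Cpeb1, Cpeb2, Dazl, Msi2 and Celf1 were higher in it than in both, at 0.52, 0.22, 1.13, 0.42 and 0.52 log2 CPM relative to that mean. So 10 of the 10 genes had this library at an end of the wild-type range, as did 75.5% of all genes tested, with 39.3% above and 36.2% below the other libraries. The split was noticed in the data and has 1 library on one side, so it was given no test. Within the controls, the double knockout deviated from the mean of the Pnma4 KO libraries with the same sign as wild-type replicate 3 for 7 of the 10 genes, as for 56.5% of all genes tested. The exceptions were Ybx1, Cpeb2 and Celf1. In the double knockout Ybx2 and Larp1 differed from that mean by −0.29 and −0.20 in log2 CPM. Celf1 and Cpeb2 lay below it, with differences of −0.57 and −0.34, and Dazl and Msi2 lay above it, with 0.31 and 0.18.

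**Figure D4:**
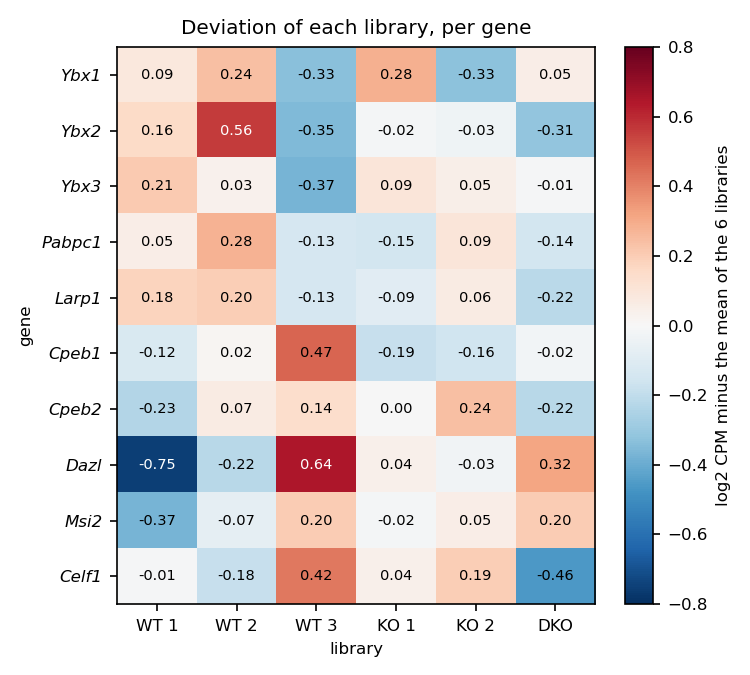
Deviation of each library (columns) from the mean of the 6 libraries in log2 CPM, with a prior count of 2, for each gene (rows). The rows are grouped by the sign in wild-type replicate 3, negative for the upper 5 genes and positive for the lower 5. The most extreme cells are those of Dazl in wild-type replicates 1 (−0.75) and 3 (0.64).

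Other genes that act on stored messages were set beside the 10 as 9 lists with 124 further genes, of which 112 passed the filter on low counts. None of the 112 was higher or lower in wild type in the edgeR test, and 1 had an unadjusted p under 0.05. Their median log2 fold change was −0.0002, with 55 positive and 57 negative values. The intervals of 104 of them lay within 1 of 0. In CPM, 4 genes had all wild-type libraries above the controls and 5 had all below, 8.04% of the 112 in all, where 3.25% of all genes tested lay above and 3.43% below, 6.68% together.

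Relatives of the Y-box genes with a cold shock domain gave 5 tested genes with a median of 0.07. Carhsp1 was below all controls in every wild-type library after TMM scaling, but level with them without scaling factors (log2 fold change 0.00059), at 18.9 ± 1.20 and 23.9 ± 3.26 CPM (SD, n = 3 each, log2 fold change −0.33 ± 0.23 as standard error, edgeR adjusted p = 1.00). The 8 tested poly(A)-binding genes and partners had a median of −0.05. Among 21 genes of cytoplasmic polyadenylation, with a median of 0.05, the testis poly(A) polymerase gene Papolb stood at 266 ± 46.4 and 335 ± 33.0 CPM, and Tent5c at 341 ± 29.6 and 381 ± 32.4 CPM (SD, n = 3 each).

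The 7 tested relatives and partners of Dazl had a median of −0.12. Boll, the paralogue of Dazl expressed at meiosis and later, was at 61.3, 99.2 and 141 CPM in wild-type replicates 1 to 3 and at 119, 123 and 115 CPM in the controls. As with Dazl, replicate 1 was the lowest and replicate 3 the highest of the 6 libraries. Meioc, a meiotic regulator, was ordered alike in wild type, at 90.3, 124 and 216 CPM. Wild-type replicate 3 was above both other wild-type libraries for 50.9% of the 112 listed genes and for 39.3% of all genes tested. The summed germ cell markers of wild type, 1488 to 1551 CPM, held genes with opposite orders of the libraries. The meiotic genes Sycp1 (148, 110 and 265 CPM) and Sycp3 (17.2, 10.4 and 28.1 CPM) were highest in wild-type replicate 3. Stag3, also meiotic, was lowest there in CPM. The spermatid genes Prm2 (403, 383 and 271 CPM) and Tnp2 (138, 127 and 89.3 CPM) were lowest there, while Prm1 (51.1, 30.2 and 71.4 CPM) and Tnp1 were highest there. Among these markers, chosen after their values were seen, the genes of a stage did not all have the same order of the libraries. The part of germ cell stages in the levels of Dazl was not tested. The 6 tested La-related genes other than Larp1 had a median of −0.01, with Larp1b at 223 ± 60.6 and 225 ± 61.9 CPM (SD, n = 3 each).

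Musashi, CELF and ELAV relatives had the highest median of the lists, 0.24, with 7 of 9 values positive. Celf3, Celf4 and Celf6, known mainly from nervous tissue, stood higher in wild type by 0.55, 0.73 and 0.63 on the log2 scale (with standard errors of 0.26, 0.38 and 0.36, and edgeR adjusted p = 1.00 for each). Without scaling factors these differences were 0.81, 1.03 and 0.94. Celf3 was the gene with an unadjusted p under 0.05 (0.0404), at 34.4, 40.9 and 27.1 CPM in wild type against 32.5, 23.0 and 14.3 CPM in the controls, so its groups overlapped. Without the double knockout its log2 fold change was 0.32. Celf4 and Celf6 had no overlap between groups but stood at under 6 CPM in every library. Celf2 (31.8 ± 10.7 and 34.2 ± 3.29 CPM) and Elavl1 (100.2 ± 22.7 and 97.0 ± 19.6 CPM, SD, n = 3 each), which encodes the stability factor HuR, did not pass the test.

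Storage and stress granule genes had a median of 0.02 over 18 tested genes. Caprin1, a granule scaffold, was the steadiest of them in wild type, at 237 ± 0.996 CPM against 221 ± 19.4 CPM in the controls (SD, n = 3 each). Its wild-type values all lay above the controls, with a log2 fold change of 0.10, and it did not pass the test. Among 21 other regulators, with a median of −0.01, Igf2bp3 was above all controls in every wild-type library, at 58.7 ± 3.05 and 46.7 ± 2.63 CPM (SD, n = 3 each, log2 fold change 0.33, edgeR adjusted p = 1.00). Its log2 fold change was 0.65 without scaling factors. In the same list Tsn and Ddx25 were below all controls, with log2 fold changes of −0.28 and −0.21 (edgeR adjusted p = 1.00 for each) that were 0.0069 and 0.10 without scaling factors. Tsn encodes translin, which binds RNA in germ cells, and Ddx25 a testis helicase needed for spermatid development.

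The 17 germ cell messages listed as stored or regulated had the lowest median of the lists, −0.20, with 11 negative values and none past the test. Ldhc, the sperm lactate dehydrogenase gene, stood at 525, 472 and 499 CPM in wild type against 636, 580 and 724 CPM in the controls (log2 fold change −0.38 ± 0.21 as standard error, edgeR adjusted p = 1.00, and −0.05 without scaling factors). Odf1 of the sperm tail was at 201 ± 3.75 and 238 ± 16.7 CPM (SD, n = 3 each, log2 fold change −0.24, edgeR adjusted p = 1.00), with a log2 fold change of 0.044 without scaling factors. For both the groups did not overlap. Prm1, the protamine message bound by Y-box proteins, was at 50.9 ± 20.6 and 68.5 ± 25.1 CPM, and Prm2 at 352 ± 71.4 and 339 ± 53.1 CPM (SD, n = 3 each). The summed markers of epididymis were lower in the same wild-type libraries, as given above. Cst8 made up most of that sum, at a mean of 11.8 CPM over the 6 libraries, beside 3.09 CPM for Crisp1 and 1.03 CPM for Adam7. Crisp1 had 2, 5 and 1 counts in wild-type replicates 1 to 3 against 20, 21 and 24 in the controls. Adam7 had 1, 2 and 2 counts against 4, 10 and 8, and Cst8 had 41, 53 and 61 against 49, 73 and 55. The part of these markers in the values above was not tested.

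**Figure D5:**
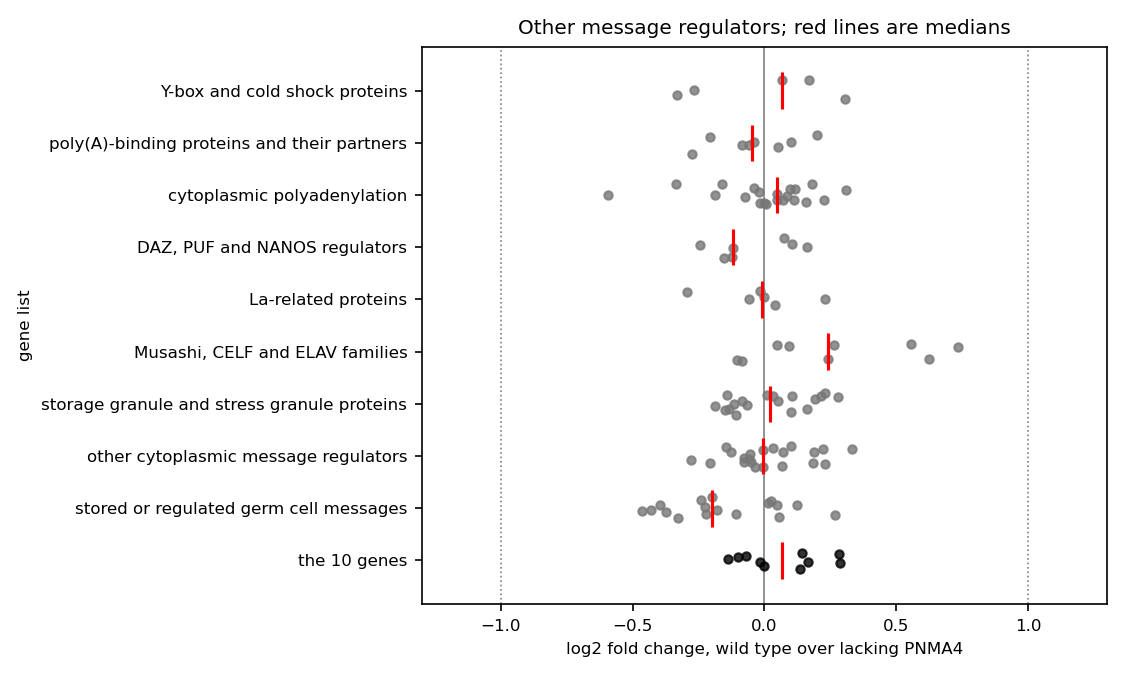
Log2 fold change, wild type over lacking PNMA4 (horizontal axis), of each tested gene of the 9 lists (grey points) and of the 10 genes (black points), with the median of each row as a red line and 2-fold marked by dotted lines. The medians run from −0.20 for the list of stored or regulated germ cell messages to 0.24 for Musashi, CELF and ELAV relatives, and no point passed the test.

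The genes whose pattern over the 6 libraries was nearest to the median profile of the 10 were Ythdf2, Stau1 and Caprin1. Their root-mean-square distances from it were 0.03, 0.06 and 0.10 in centred log2 CPM, among 112 genes compared. Of the 10 genes themselves Larp1 and Pabpc1 were nearest to that profile, at 0.12 and 0.13, and Dazl was farthest, at 0.46. The profile itself was almost flat, with extremes of −0.08 (double knockout) and 0.05 (wild-type replicate 2), so that nearness to it marks steady genes.

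Without scaling, the 10 genes together held 0.429%, 0.608% and 0.401% of all counts in wild-type replicates 1 to 3 and 0.391%, 0.468% and 0.227% in replicates 1 to 3 lacking PNMA4. The low share of the double knockout went with its large share of Rn18s-rs5. After TMM scaling the sums were 4194, 4722 and 3727 CPM in wild type against 3869, 4229 and 3612 CPM in the controls, and the groups overlapped. With total counts in place of TMM scaling the median log2 fold change of all genes moved from 0.01 to 0.31, and that of the 10 genes from 0.07 to 0.35. All 10 were then positive, and none passed the test.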

How the data were processed

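RNA was counted in 6 immunoprecipitates. The authors deposited 1 table of raw counts per Ensembl gene ID with symbols, used as deposited, and all 6 columns were matched to samples by name. The submitters' processing notes name bcl2fastq 2.20, STAR 2.5.2b, featureCounts, DESeq2 and GRCm38. The labels do not state the strand setting, the handling of multi-mapped reads or the annotation release. Positions come from a RefSeq table of GRCm38.p6, and no sequences of transcripts or proteins were used.

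Counts were filtered (filterByExpr, minimum count 10, minimum total 15), which left 13413 genes, scaled by TMM (factors 0.629 to 1.29) and tested by quasi-likelihood in edgeR 4.0.16 (R 4.3.3) with Benjamini-Hochberg adjustment over all genes at 0.05. The 3 controls were 1 group, as the labels say. Standard errors were taken as the size of the log2 fold change over the root of F. The fit was tested on simulated data. No pair of libraries agreed within sampling noise (chi-square per gene at least 6.28). Per the design text, the 3 preparations of a group are biological replicates. Alternatives were DESeq2 1.42.0, limma-voom (limma 3.58.1), other scalings and filters, no rRNA-like genes, a replicate block and each library left out.

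The 10 genes and the lists were chosen with earlier results of these data known. Named are the 10, genes past the threshold, up to 3 abundant genes per list, genes whose interval excludes 0, and the 3 listed genes nearest to the median profile of the 10. Genes named because their groups do not overlap, and Sycp1, Sycp3, Stag3, Tnp1, Tnp2, Prm1 and Prm2, were chosen after their values were seen. The list symbol Qk is Qki in the table. The values of 1 listed gene are not reported here, though list counts and medians contain it.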

Additional observations from a re-analysis of the deposited data

How the results depend on the processing

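None of the 10 genes and none of the 112 listed genes was called in any of the 15 alternatives. Of 150 values of the 10 genes under these, 129 kept their direction and 21 changed it. Without scaling factors, the log2 fold changes were 0.33 for Ybx1, 0.23 for Ybx3, 0.25 for Cpeb2, 0.23 for Dazl and 0.18 for Msi2, and 0.00059 for Carhsp1, 0.10 for Ddx25, 0.044 for Odf1 and 0.0069 for Tsn. In that setting the median of the 10 was 0.35, and 2 of the 10 intervals lay within 1 of 0, against 10 otherwise. Ybx1, at −0.003, was 0.0069 with upper-quartile scaling, 0.0074 in DESeq2, 0.086 in limma-voom, 0.015 with no filter and 0.0014 without rRNA-like genes. With 1 library left out the values ran from −0.16 to 0.15 for Ybx1, −0.21 to 0.085 for Ybx3, −0.12 to 0.11 for Cpeb2, −0.56 to 0.15 for Dazl and −0.051 to 0.28 for Celf1, and the median of the 10 from 0.0095 to 0.16. Over all genes, 3 were higher and 5 lower. These counts were 11 and 20 with no filter, 2 and 0 with the stricter filter and 3 and 3 in limma-voom. With 1 library left out they ran from 2 to 6 higher and from 5 to 14 lower. Celf4 and Celf6 fell out of the stricter filter and have no value there. The cause of these changes was not tested.

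The replicate numbers did not pair the libraries (correlations of same-numbered deviations of 0.04, −0.06 and 0.08). With the replicate block, 3 genes were higher and 4 lower, 0 of the 10 were called and their median was 0.06. Counts of 30 to 99 per library limit Cpeb1.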
